A study of Mus musculus with 6 samples.

Results

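Manf and 9 chaperones and folding enzymes of the endoplasmic reticulum (ER) were followed in macrophages sorted from regenerating mouse muscle. The 10 genes (Manf, Hspa5, Hsp90b1, Pdia4, Pdia6, Sdf2l1, Creld2, Hyou1, Calr and Dnajb11) were chosen by name as genes of the ATF6 type of ER stress response, with earlier results of these data known. Each had 1 row among the 54966 features of the deposited table. All libraries came from wild-type mice whose skeletal muscle had been injured with barium chloride, which destroys fibres and starts regeneration. The cells were taken on day 3, gated as positive for CD11b and F4/80 and low for Ly6C, and labelled pro-repair macrophages. The 2 groups, young and old, differed by the age label alone, with 3 libraries each. The labels give no age in months, no strain and no sex, and they do not tie a library to an animal. The p-values therefore speak only of how far these libraries scatter, and that scatter may be technical. In bulk RNA, fewer cells of a type and less RNA per cell cannot be told apart.

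The ER folds the proteins that a cell secretes or places in its membranes. When unfolded proteins accumulate there, the sensor ATF6 moves to the Golgi and is cut by the proteases encoded by Mbtps1 and Mbtps2, and the released fragment enters the nucleus and, with NF-Y, binds ER stress elements (ERSE) in promoters of chaperone genes. The sensors IRE1 (gene Ern1, which activates Xbp1 by splicing) and PERK (gene Eif2ak3, which acts through ATF4) run beside it. MANF is an ER-resident protein that is also secreted under stress and acts as a trophic and immune-modulating factor, including from macrophages in tissue repair. ATF6, XBP1 and PERK are activated as proteins or by splicing, which gene-level values do not report.

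An ERSE is the letters CCAAT followed, after 9 free bases, by CCACG. ERSE-II is ATTGG, 1 free base and CCACG. Both were searched on both strands of RefSeq promoter windows on GRCm38.p6, from 250 bases before to 50 bases after each start. Of the 10 members 8 had a window (all but Manf and Hyou1), and 5 of the 8 held an exact ERSE, against 0.137% of the 27025 genes with a window. Dnajb11 held an ERSE-II, against 0.0444% of genes. The members were chosen by name as genes of the ATF6 type, and ERSE is the element that ATF6 binds. The excess may therefore follow from that choice and is no separate result. The matched stretches are shown because they are the sequence feature that the expression values below did not choose. Capitals mark the fixed letters of each match, on the gene's strand, 5′ to 3′.
Hspa5, chr2:34772013-34772055, plus strand: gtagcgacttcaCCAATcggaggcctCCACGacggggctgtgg
Calr, chr8:84847063-84847105, minus strand: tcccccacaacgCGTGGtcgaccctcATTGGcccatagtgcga
Pdia6, chr12:17266479-17266521, plus strand: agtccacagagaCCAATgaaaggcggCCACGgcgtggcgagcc
Creld2, chr15:88819508-88819550, plus strand: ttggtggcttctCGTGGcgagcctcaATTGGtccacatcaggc
Hsp90b1, chr10:86705521-86705668, minus strand: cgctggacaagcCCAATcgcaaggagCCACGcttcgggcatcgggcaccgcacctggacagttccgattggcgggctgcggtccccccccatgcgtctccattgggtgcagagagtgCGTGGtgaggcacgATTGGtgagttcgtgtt
Dnajb11, chr16:22857852-22857862, plus strand: ATTGGcCCACG
The Hspa5 match runs from 65 to 47 bases before the RefSeq start and the Pdia6 match from 98 to 80. Hsp90b1 holds 2 matches, 1 in each orientation, and in Calr and Creld2 the element is reversed. The Dnajb11 match lies just after the start. Pdia4 had a match only with 1 mismatch allowed, a setting met by 1.72% of genes. Sdf2l1 had none of these. The UPRE core TGACGTG was found in Hspa5 alone, against 2.22% of genes. The CCAAT and CCACG letters are part of an ERSE and common by themselves, in 41.1% and 35.5% of genes, and all 8 members with a window held both. The matches describe letters in these windows and do not show binding.

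Levels are the authors' FPKM, in which fragment counts are divided by gene length and by library size. The length that fitted was that of all annotated exons together. Levels of different genes therefore compare only as far as that length matches the transcripts present. Recovered fragments totalled 16543939 to 19400929 per library. Libraries with the fewest were young replicates 2 and 3 (16543939 and 16997949, against 17890035 to 19400929 in the other 4). The library sizes implied by the FPKM were also smallest in these 2 (16817290 and 17031235), but old replicate 2 came close (17227705). Recovered fragments exceeded the implied size in each old library and fell below it in each young one. The cause of this difference was not tested. The members rested on 432 (Creld2, young replicate 3) to 40716 (Hspa5, young replicate 1) fragments, a counting error of 4.81% at the thinnest. The gate's own genes were present, with 34.3 to 50.9 FPKM for Itgam (CD11b) and 347.4 to 476.3 for Adgre1 (F4/80), and none of the 8 macrophage markers was called. Of these 8, 4 had groups without overlap, higher in old, against 12.3% of all genes with that separation upward. They were Cd68 (log2 change 0.50), Itgam (0.39), Adgre1 (0.30) and C1qb (0.16). C1qa (0.18), Mertk (0.00), Lyz2 (-0.08) and Csf1r (-0.23) overlapped. An unadjusted limma p below 0.05 was reached by 3 of the 8, Itgam, Adgre1 and Cd68, against 8.84% of all genes in that direction. Cd68 had 1077, 997.3 and 794.8 FPKM in young, with young replicate 3 lowest, and Csf1r had 390.6, 440.6 and 530.5, with young replicate 3 highest. Ly6c2, a gene of the Ly6C antigen, had 3.20, 2.32 and 1.31 FPKM in young and 7.68, 2.46 and 6.99 in old, a change of 0.97 (SE 0.379, adjusted p = 0.305). Its young libraries stood in the same order as those of the members. Among the old libraries Ly6c2 was lowest in replicate 2, where 7 members had their highest level. The other Ly6C gene, Ly6c1, lay below the filter for testing and had a lower mean in old. Ly6c1 had 0.484, 0.213 and 0.105 FPKM in young and 0.0667, 0.104 and 0.0325 in old. The part of Ly6C level in the results was not tested. Antibody-secreting cells are rich in ER chaperones, and of 8 plasma and B cell markers Jchain, Mzb1 and Igkc lay between 0 and 0.315 FPKM in every library. The summed level of these 8 markers, of which only Ighm and Sdc1 averaged above 1 FPKM, was 28.7, 40.1 and 58.4 FPKM in young and 16.3 to 24.9 in old, so that young replicate 3 was highest. The summed levels of 6 fibroblast markers (2.96 to 5.71 FPKM in young, 1.07 to 2.31 in old) and 6 muscle markers (12.4 to 15.3 and 4.55 to 7.44) were also lower in old, and the muscle actin gene Actc1 was 1 of the 4 genes called in the whole table (log2 change -1.37, adjusted p = 0.0444). The part of these other cells in the results was not tested. Markers of T and NK cells summed to at most 0.179 FPKM.

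Every member had a higher mean in old than in young macrophages, by 1.15-fold (Dnajb11) to 1.42-fold (Creld2), and none of the 10 passed the test. All 10 passed the filter of a mean of at least 1 FPKM. Called means a limma p adjusted over all 11108 genes tested below 0.05, which 0.036% of those genes reached. Positive log2 changes were found for 10 of 10 members, against 53.1% of all genes, with a median of 0.31 for the members and 0.01 for all genes. Because the members were chosen with earlier results of these data known, this contrast may partly follow from the choice. The members varied together across libraries, so the 10 signs are not 10 separate observations. The groups did not overlap for 1 member, Pdia4, against 12.3% of all genes with that separation upward. An unadjusted p below 0.05 was reached by 3 members, Pdia4, Creld2 and Pdia6, against 8.84% of all genes in that direction. With voom on recovered fragments 0 were called and 2 had an unadjusted p below 0.05, as had 1870 of 10965 genes in either direction.

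**Figure D1:**
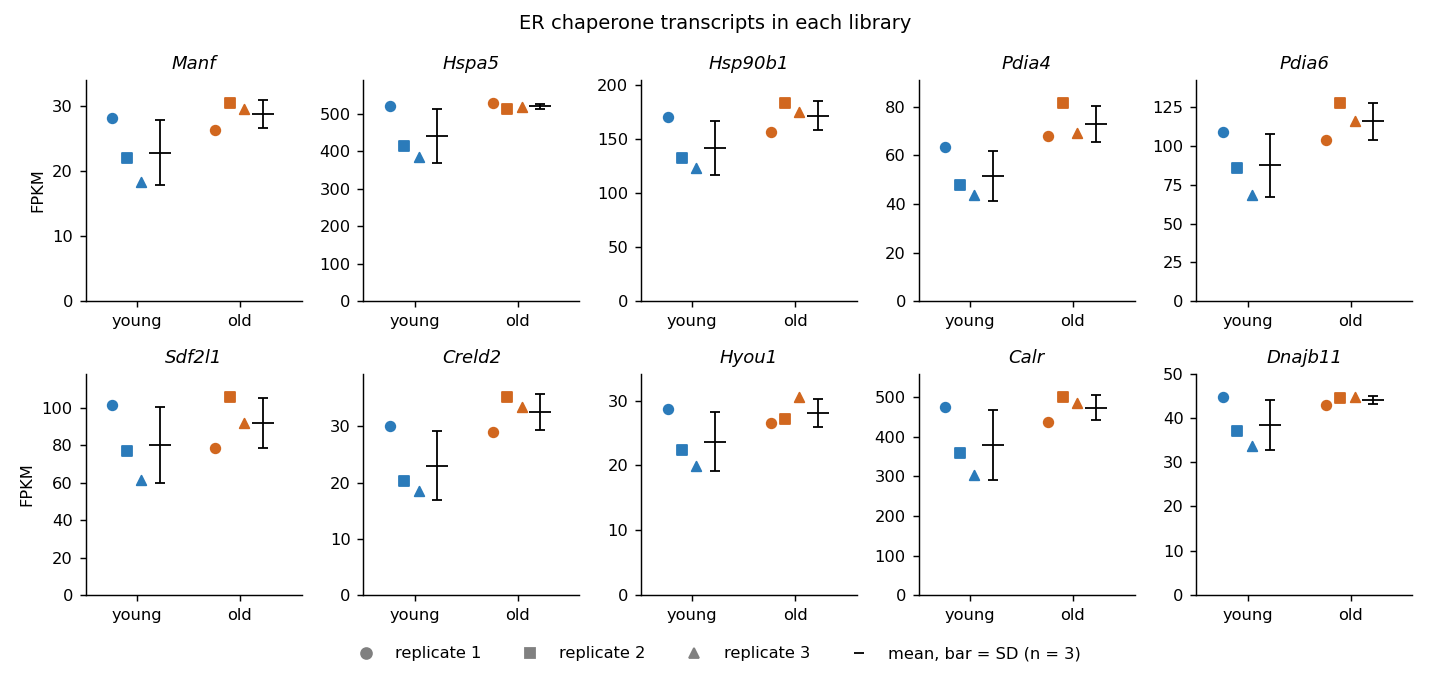
FPKM of each member (vertical axes from 0) in the 3 young (blue) and 3 old (orange) libraries, with the group mean and SD beside the points. Young replicate 1 (circle) lies within or near the old points in each panel, and young replicates 2 and 3 lie below them.

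Manf, the secreted ER protein, had 28.2, 22.0 and 18.3 FPKM in young replicates 1 to 3 and 26.3, 30.4 and 29.6 FPKM in old replicates 1 to 3. Young replicate 1 stood above old replicate 1, so the groups overlapped, while young replicates 2 and 3 lay below every old library. The means were 22.8 ± 5.03 and 28.8 ± 2.14 FPKM (SD, 3 libraries each). The log2 change was 0.34 on the log2(FPKM + 1) scale (SE 0.15, 95% interval -0.02 to 0.69, limma adjusted p = 0.35). An exact two-sided permutation test gave p = 0.2, where 3 against 3 libraries cannot go below 0.1. Manf was not called. Manf lies on chromosome 9 from 106838312 to 106891979, and 146 of its 3524 annotated exon bases are shared with Dcaf1 and 166 with an antisense RNA, both on the opposite strand. Without the strand setting of the counting, fragments there cannot be assigned. Dcaf1 had 1.6 to 2.7 FPKM, and the antisense RNA 4930524O07Rik at most 0.183.

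The chaperones proper came next. Hspa5, which encodes BiP, the Hsp70 of the ER that holds the stress sensors inactive, had 520.5, 414.9 and 385.4 FPKM in young and 526.8, 512.0 and 518.3 in old. It was the most abundant member, and its old libraries differed by 1.03-fold from lowest to highest, against 1.35-fold among the young. Its log2 change was 0.25 (SE 0.12, limma adjusted p = 0.386). Hsp90b1, the Hsp90 of the ER (GRP94), which folds integrins and Toll-like receptors, had 170.3, 132.3 and 123.7 FPKM in young and 156.7, 183.0 and 175.2 in old, a change of 0.28 (SE 0.131, adjusted p = 0.372). Of its exon bases 10.3% are shared with 1810014B01Rik on the opposite strand, which had at most 1.2 FPKM. Hyou1, a large Hsp70-related chaperone that serves as exchange factor for BiP, had 28.7, 22.4 and 19.9 FPKM in young and 26.5, 27.2 and 30.5 in old (0.25, SE 0.134, adjusted p = 0.437). For these 3 genes young replicate 1 exceeded 1 or 2 of the old libraries.

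Dnajb11 and Sdf2l1 encode partners of BiP. Dnajb11 is a J-domain co-chaperone of BiP and had 44.6, 37.1 and 33.5 FPKM in young against 43.0, 44.4 and 44.6 in old. Its log2 change of 0.20 was the smallest of the 10 (SE 0.105, limma adjusted p = 0.424). Sdf2l1, which works with Dnajb11 to keep BiP clients soluble, had 101.5, 76.8 and 61.4 FPKM in young and 78.5, 105.5 and 91.6 in old. Its old libraries spread most among the members, by 1.34-fold, and it had the highest p (0.22, SE 0.191, adjusted p = 0.64).

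The disulphide isomerases and Creld2, which form or rearrange disulphide bonds, had the largest changes. Pdia4 had 63.2, 47.8 and 43.6 FPKM in young and 68.1, 81.3 and 69.2 in old, with every old library above every young one. Its means were 51.6 ± 10.3 and 72.9 ± 7.33 FPKM (log2 change 0.50, SE 0.145, 95% interval 0.16 to 0.85, limma adjusted p = 0.213). Its 95% interval, unadjusted for the number of genes, lay above 0, as did those of Pdia6 and Creld2, and none of the 3 adjusted p-values passed. Pdia6, which also binds BiP and the sensors, had 108.7, 85.6 and 68.5 FPKM in young and 103.8, 127.3 and 116.2 in old (0.42, SE 0.168, interval 0.02 to 0.82, adjusted p = 0.314). Creld2, a secreted, stress-inducible protein with isomerase activity, had 30.0, 20.3 and 18.6 FPKM in young and 29.0, 35.1 and 33.5 in old (0.51, SE 0.174, interval 0.10 to 0.92, adjusted p = 0.257). For Pdia6 and Creld2, young replicate 1 stood just above old replicate 1. Calr, calreticulin, the lectin chaperone that holds glycoproteins and stores calcium, had 476.5, 359.0 and 304.2 FPKM in young and 437.7, 499.8 and 484.3 in old (0.34, SE 0.163, adjusted p = 0.385).

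**Figure D2:**
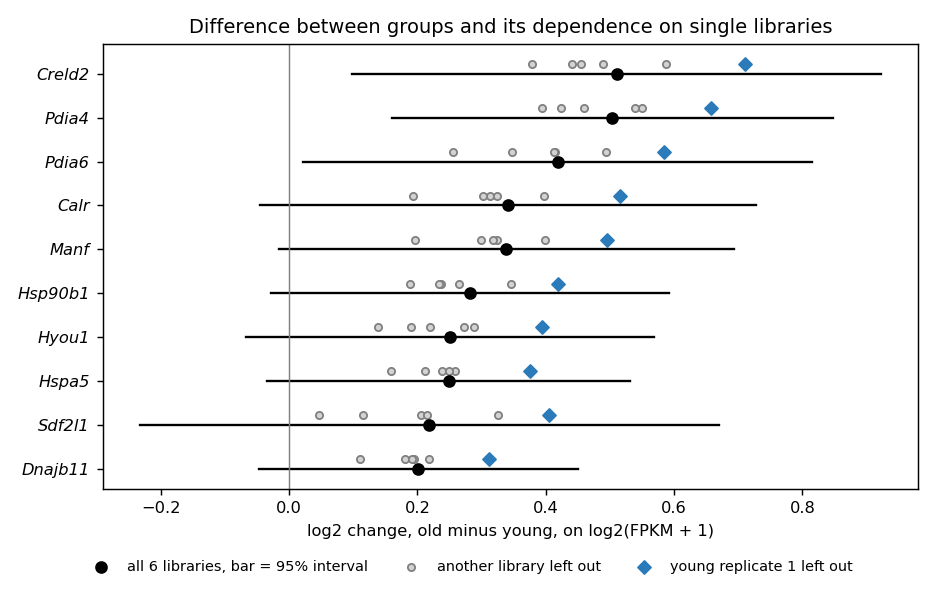
Log2 change, old minus young, on the log2(FPKM + 1) scale for each member, with all 6 libraries (black, bar = 95% interval) and with each library left out in turn (diamond, young replicate 1 left out; grey, another library). All points lie above 0, and leaving out young replicate 1 gives the largest value for every member.

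The order of levels was nearly the same in both groups. Order and shares depend on the annotated exon lengths, from 1108 bases (Sdf2l1) to 7230 (Hyou1), with 3524 for Manf. Whether those lengths match the transcripts present was not tested. Hspa5 exceeded Calr in each of the 6 libraries, with 440.3 ± 71.1 against 379.9 ± 88.0 FPKM in young and 519.0 ± 7.45 against 474.0 ± 32.3 in old. Hsp90b1, Pdia6, Sdf2l1, Pdia4 and Dnajb11 followed. In old, Creld2 (32.5 ± 3.16 FPKM), Manf (28.8 ± 2.14) and Hyou1 (28.1 ± 2.14) were lowest, and the last 2 did not differ beyond their spread. In young these 3 had 23.0 ± 6.16, 22.8 ± 5.03 and 23.7 ± 4.58 FPKM and could not be ordered. Hspa5 and Calr together made up most of the summed level, with mean shares of 34.3% and 29.3% in young and 32.9% and 30.0% in old. The 10 members summed to 1572, 1218 and 1077 FPKM in young and 1496, 1646 and 1593 in old, which is 0.326% to 0.488% of all FPKM in a library.

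The members varied together from library to library. Young replicate 3 was the lowest library for 10 of 10 members and young replicate 2 the second lowest for 10 of 10, an order found in 9.69% of all tested genes. This pattern was noticed after the values were seen. It follows from this order that each member's old libraries all lay above young replicates 2 and 3. Young replicate 1 lay between 0.868 (Pdia4) and 1.1 (Sdf2l1) times the old mean. It stood above no old library for 1 member, above 1 or 2 old libraries for the rest, and above all 3 for 0. The coefficient of variation was larger among young than among old libraries for 10 of 10 members, against 49.5% of all tested genes. For Manf it was 22.0% in young and 7.45% in old, and for Hspa5 16.1% and 1.44%, with counting errors of at most 3.02% and 0.6%. Young replicates 2 and 3 were also the libraries with the fewest fragments, and the part of depth in the result was not tested. Without young replicate 1 the median change of the members was 0.46, and still none was called. The limma adjusted p then ran from 0.0881 (Creld2, log2 change 0.71) to 0.248 (Sdf2l1, 0.40). All 10 had an unadjusted p below 0.05 in that setting, as had 2001 of all 11108 genes in either direction. Without young replicate 3 the median was 0.19, with limma adjusted p from 0.479 (Pdia4, log2 change 0.39) to 0.947 (Sdf2l1, 0.05). There 1 member had an unadjusted p below 0.05, as had 1085 of all 11108 genes. Hyou1 then had 0.14, Dnajb11 0.11, Hspa5 0.16, Calr 0.19, Hsp90b1 0.19, Pdia6 0.26 and Creld2 0.38. Without young replicate 1 Manf had a log2 change of 0.50 (limma adjusted p = 0.133), and without young replicate 3 it had 0.20 (adjusted p = 0.651).

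**Figure D3:**
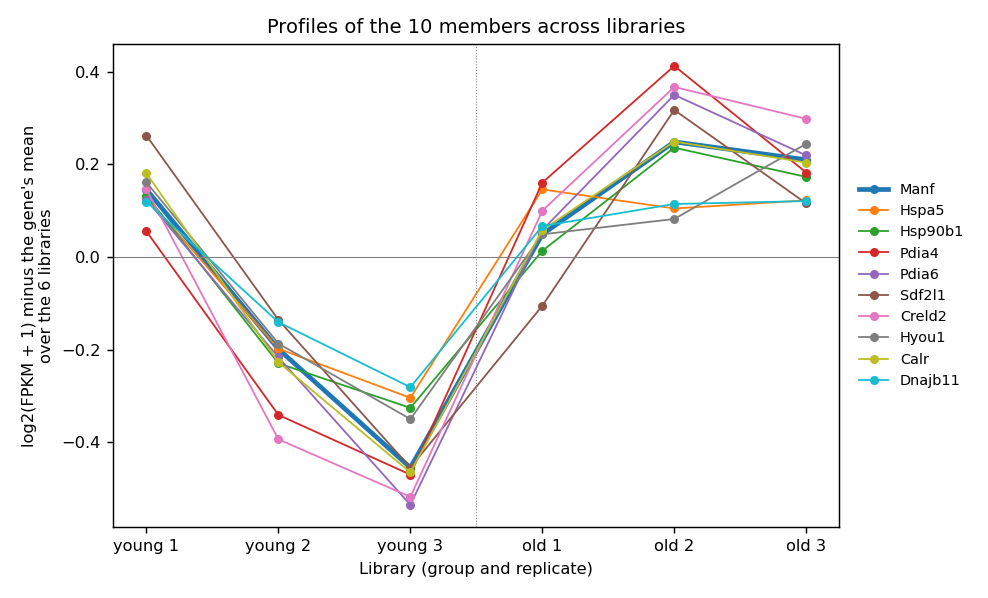
Log2(FPKM + 1) of each member minus its own mean over the 6 libraries, for young replicates 1 to 3 and old replicates 1 to 3. Lines only join the points of 1 gene, and all 10 genes are lowest in young replicate 3.

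Set against the other 9, Manf held its place. Its log2(FPKM + 1) minus the mean of the others lay between -1.86 and -1.79 in the 6 libraries, at -1.82 ± 0.04 in young and -1.81 ± 0.02 in old. Calr was equally steady, with 2.62 ± 0.05 and 2.63 ± 0.01. Creld2 and Pdia4 stood higher relative to the others in old, by 0.20 and 0.19 on the log2 scale, with no overlap between groups. They also had the largest log2 changes of the members, and no share over all genes was counted for such relative values. Dnajb11 and Sdf2l1 stood lower relative to the others in old, by -0.14 and -0.13, with overlapping groups. These relative values are descriptions, with no test.

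Likeness to Manf was measured as the root-mean-square difference, over the 6 libraries, between profiles of log2(FPKM + 1) centred on each gene's mean. Calr was the closest of 11107 genes, at 0.02 on the log2 scale. Pdia6 ranked 4 and Hsp90b1 5, and the other members ranked between 16 (Hyou1) and 67 (Pdia4). Outside the members the closest gene to Manf was Rpn1, a subunit of the oligosaccharyltransferase that attaches sugars to new proteins, at 0.04. Lgals1 (galectin-1), Vat1 and the pseudogene Gm10080 were among the 5 closest, at 0.06 to 0.07. Rpn1 had 45.8, 36.4 and 30.5 FPKM in young and 44.5, 47.3 and 47.9 in old. Rpn1 was also the closest to the mean profile of the 10 members, and the 8 closest included Lgals1, the pseudogene Gm10157, the carboxypeptidase gene Cpd, the ER selenoprotein gene Selenom, Vat1 and Mphosph8. With 6 libraries in 2 groups, such likeness is a description only.

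The genes that switch the response on had small differences. Atf6 itself had 23.3, 21.6 and 23.3 FPKM in young and 27.6, 23.7 and 24.6 in old, without overlap, a change of 0.15 (SE 0.0764, adjusted p = 0.422). Its relative Atf6b had a change of -0.04, and the ATF6 proteases Mbtps1 and Mbtps2 had 0.07 and 0.13. Ern1 had 0.06 and its target Xbp1 -0.03, with 36.2 to 44.0 FPKM over all libraries. Eif2ak3, the PERK gene, had lower values in old, also without overlap, with 8.67, 7.78 and 7.5 FPKM in young and 6.27, 7.23 and 7.03 in old. Its change was -0.19 (SE 0.0811, limma adjusted p = 0.33). None of these 7 was called, 1 (Eif2ak3) had an unadjusted p below 0.05, and their median change was 0.06. Groups were separate upward for 12.3% of all genes, and the share with separation downward was not counted.

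ER folding genes outside the 10 members were also mostly higher in old by their means. Of 25 tested, 21 had positive changes, 8 had groups without overlap upward, 0 were called, 7 had an unadjusted p below 0.05, and the median was 0.12. Over all 11108 tested genes, 53.1% had positive changes and 12.3% had groups without overlap upward. An unadjusted limma p below 0.05 in either direction, as counted for each list, was reached by 1668 of them. The smallest p belonged to Ppib, the ER cyclophilin, with 27.0, 25.8 and 24.0 FPKM in young and 30.3, 34.5 and 29.7 in old (0.29, SE 0.082, limma adjusted p = 0.208). The oxidase gene Ero1l (0.21), the prolyl isomerase gene Fkbp2 (0.31) and Sil1, another exchange factor of BiP (0.23), followed. Of 30 genes of the translocon and of N-glycosylation, 25 had positive changes, 2 were separate upward and 0 were called (2 at an unadjusted p below 0.05), with a median of 0.09. Those of smallest p were Ssr3 (0.21), Srpr (0.19), Rpn1 (0.32) and Rpn2 (0.24).

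Genes of ER-associated degradation, which sends misfolded proteins to the proteasome, were mixed. Of 22 tested, 15 had positive and 7 negative changes, 4 and 2 of them without overlap, and 0 were called (4 at an unadjusted p below 0.05). Separation upward was found in 12.3% of all genes, and the share with separation downward was not counted. Herpud1, a membrane scaffold of this pathway, went against the members, with 30.5, 28.8 and 38.5 FPKM in young and 22.8, 24.7 and 21.4 in old (-0.48, SE 0.117, limma adjusted p = 0.172). Its highest library was young replicate 3, where the 10 members were lowest. Sel1l, the partner of the ligase HRD1, had 0.25 (adjusted p = 0.179), and the lectins Os9 and Erlec1 had 0.17 and 0.22. Of the KDEL receptors, which return escaped ER proteins from the Golgi, Kdelr1 had -0.07 and Kdelr2 0.02, and Kdelr3 was at or below 0.25 FPKM. Cdnf, the paralogue of Manf, was at 0.149 to 0.359 FPKM, and Nptn, a reported plasma membrane receptor of MANF, had 46.4 to 52.5 FPKM in young and 53.0 to 56.8 in old (0.17, SE 0.0704, adjusted p = 0.335).

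**Figure D4:**
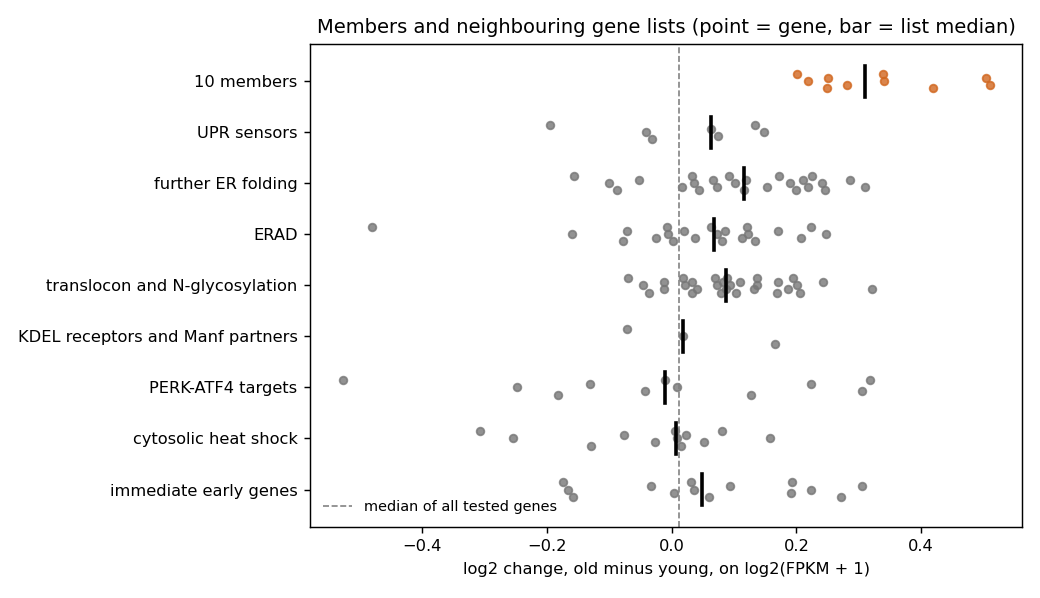
Log2 change, old minus young, on the log2(FPKM + 1) scale for each tested gene of the members (orange) and of 8 neighbouring lists (grey), with the list median as a black bar and the median of all tested genes (0.01) as a dashed line. The members have a median of 0.31 and the other lists medians between -0.01 and 0.12. Members and lists were chosen with earlier results of these data known.

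The PERK-ATF4 targets, the other arm of the response, had 5 positive and 6 negative changes among 11 tested (median -0.01), 0 called and 4 with an unadjusted p below 0.05. With voom, 1 gene of the 8 lists, Slc7a11, was called. Ddit3 (CHOP) had 11.1 to 11.7 FPKM in young and 12.7 to 16.1 in old (0.32, SE 0.092, limma adjusted p = 0.212), and Atf3 had 0.31. Slc7a11 had -0.53 and Shmt2 -0.25. These 4 genes had groups without overlap, 2 upward, against 12.3% of all genes, and 2 downward, for which no share was counted. The 12 cytosolic heat shock genes had a median of 0.01, with 0 called, 0 at an unadjusted p below 0.05, 7 positive and none without overlap between groups. Those of smallest p were Dnajb1 (0.16), Hspb1 (-0.31), Hspa1b (-0.25) and Hspa4l (0.08). Their summed level was lowest in young replicate 2 and old replicate 2 (1780 and 1762 FPKM). The summed level of the ER members was highest in old replicate 2, as were 7 of the 10, with 1 highest in old replicate 1 and 2 in old replicate 3. The immediate early genes, which respond to cell isolation, had a median of 0.05 over 14 genes with 10 positive, 0 called and 1 with an unadjusted p below 0.05, Atf3. After Atf3 the smallest p belonged to Nr4a1 (-0.17), Dusp1 (0.19) and Jun (0.19). These 3 lists do not share the library order of the members in their sums.

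The promoter elements gave a further group that expression did not choose, looked at after the values were seen. Outside the members, 32 genes held an ERSE and 7 of them were tested. Of the 7, 5 had positive changes, 0 were called, 0 had groups without overlap, and the median was 0.14. They were the chaperones Canx (0.20) and Dnajc3 (0.24), the mannosyltransferase gene Alg12 (0.19), the ligase gene Syvn1 (-0.01), and Adcy3 (0.14), Hnrnpa3 (0.04) and Pan2 (-0.08). Canx had 117.6, 99.7 and 93.0 FPKM in young and 116.0, 119.2 and 120.1 in old, and was the only one of the 7 lowest in young replicate 3. Of 11 non-member genes with an ERSE-II, 7 were tested, with 4 positive and 3 negative changes and a median of 0.02. Herpud1 (-0.48) was among them, and so was Nucb1, a calcium-binding protein of the secretory pathway (0.13). Canx shared the members' order, young replicate 3 lowest and young replicate 2 next, and the other 6 tested genes with an ERSE did not.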

How the data were processed

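The deposited values are FPKM per gene, computed by the authors for 6 libraries. The submitters' processing notes name GRCm38.p6. No source used here names the aligner, the counter, the strand setting or the annotation. Identifiers were matched to GENCODE M21 (99.14% of 54966), perhaps not the authors' release. FPKM times exon-union length gave whole fragments (tolerance 0.02, multiples below 200) for 97.5% to 97.6% of values per library.

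Groups were compared by limma (version 3.58.1, R 4.3.3) with a mean-variance trend, taking log2(FPKM + 1) of 11108 genes whose mean reached 1 FPKM. Tests were two-sided, with Benjamini-Hochberg adjustment over all these genes and a threshold of 0.05. The fit was tested on simulated data. This log2 scale understates changes of low genes. Python 3.11.15, pandas 2.3.3, numpy 2.4.6 and matplotlib 3.10.9 served for tables and figures.

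The members, lists and alternatives were chosen with earlier results of these data known. Named were all members, every stress sensor, the KDEL receptors, Cdnf, Nptn, cell type markers, the 4 genes of smallest p per list, the 8 genes most like the member mean and the 5 most like Manf. Some genes that this rule names are not reported here. Actc1, overlapping genes and genes with a promoter element were named after their values were seen.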

Additional observations from a re-analysis of the deposited data

How the results depend on the processing

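No member was called, and all 10 had positive changes, under each alternative run. These were pseudocounts of 0.1 and 0.01, no filter, a minimum of 5 FPKM, median-of-ratios, quantile and TPM scaling, no trend, robust moderation, array weights, the replicate block, voom on recovered fragments, and each library left out. With all 6 libraries the median change of the members was 0.31 in the main fit. It lay between 0.23 (voom) and 0.36 (array weights) in the alternatives, and was 0.25 with TPM scaling. The change of Manf lay between 0.20 (without young replicate 3) and 0.50 (without young replicate 1). Over all genes 4 were called, and 0 with either pseudocount, without the filter, at 5 FPKM or with the replicate block, 50 with array weights, 31 with voom, and 0 to 15 with 1 library left out. The 15 came without young replicate 1. At an unadjusted p below 0.05 there were 1668 genes, 1085 to 2001 with 1 library left out, and 1143 to 2489 in the other settings with 0 called. Of 123 genes in the neighbouring lists 0 were called, except 1, Slc7a11, with voom. The cause of these differences was not tested. The labels do not say whether same-numbered young and old libraries share more than the number. Correlations of their deviations across genes were 0.0321 to 0.0542, each library's highest being with its own number. In this balanced design the replicate block cannot alter a change (0.34 for Manf), only its p (limma adjusted p = 0.394), and the filters, the omitted trend and robust moderation likewise leave the changes as they were, so their signs are no sign of stability. With 1 mismatch allowed, ERSE was found in 6 members instead of 5. The median change of all genes lay between -0.07 (voom) and 0.03 (minimum of 5 FPKM). Counting error was below the coefficient of variation among young libraries for each member.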
